A study of Homo sapiens with 8 samples.

Results

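The genes described here encode the proteins of the mitochondrial ribosome. They were chosen by name alone, as every gene of the deposited table whose symbol starts with MRPL or MRPS followed by a digit, which gave 78 of 17504 genes, 49 MRPL and 29 MRPS. The samples were bulk RNA-seq libraries of human brain organoids, made at day 30 from the human induced pluripotent stem cell line IMR90-4, in a study of how FABP7, a fatty acid binding protein of radial glia, bears on the developing cortex. The series' design text speaks of adipogenic differentiation, while every sample is labelled a brain organoid; the labels were followed, and the 2 adipocyte markers that passed the filter on low counts, PLIN1 and CIDEC, were not called. Of these, 3 libraries came from knockdown organoids (genotype given as FABP7 knockdown, line FKD) and 3 from control organoids (genotype given as WT, line FCT). Each group was 1 derived cell line, so any other difference between the lines cannot be told apart from the effect of losing FABP7. Whether replicates were separate cultures is not stated, and p-values here reflect the spread among libraries alone, which may be technical.

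Expected counts, the authors' estimates of reads per gene, summed to 15063815, 15172264 and 15360145 in the knockdown libraries and to 15675888, 13424959 and 14448632 in the control libraries. FABP7 had 14, 15 and 16 counts in the knockdown libraries, against 3123, 2650 and 2850 in the control libraries (log2 fold change -7.57, SE 0.09, edgeR quasi-likelihood adjusted p 6.04e-26). Much of the transcriptome differed: of 13468 genes tested, 26.4% were called higher and 25.3% lower in knockdown at an adjusted p under 0.05. Neuron markers were lower for 8 of 9 genes, with summed levels of 2069 to 2117 TPM (transcripts scaled for length and depth) in knockdown against 3155 to 3243 TPM in control. Radial glia markers were split, 3 higher and 4 lower of 8, with sums of 1180 to 1218 TPM in knockdown against 1324 to 1384 TPM in control. Of 8 endothelial and blood markers 2 were tested and AIF1 alone rose. AIF1 held nearly all of that list's sum of 64.9 to 68.4 TPM in knockdown and 21.7 to 23.8 TPM in control, while PECAM1, CDH5 and HBA1 were at 0 in every knockdown library. Of 6 pigmented cell markers 3 were tested, PMEL and MITF rose and DCT fell, and the sums were 10.3 to 11.1 TPM in knockdown and 2.49 to 3.57 TPM in control. Of 7 mesenchyme and fibroblast markers 5 were tested, LUM and PDGFRB rose and none fell, and the sums were 10.05 to 10.83 TPM in knockdown and 5.42 to 6.25 TPM in control. The part of cell makeup in the changes below was not tested, and in bulk RNA fewer cells of a type and less RNA per cell cannot be told apart.

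Mitochondria carry their own ribosome, which translates the few mRNAs of the mitochondrial genome, all of them for subunits of the respiratory chain and ATP synthase. Its rRNAs are transcribed in the organelle, while all of its proteins are encoded in the nucleus, made in the cytosol and imported. The small subunit (MRPS) binds the mRNA and decodes it, and the large subunit (MRPL) joins the amino acids and passes the chain to the inner membrane. Compared with bacterial ribosomes it has less rRNA and many proteins with no bacterial counterpart. Inherited defects in several of these genes cause combined oxidative phosphorylation deficiency, a group of disorders that often affect heart, muscle and brain.

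All 78 genes were expressed and all passed the filter on low counts, with between 91.4 and 3397 counts in every library. Levels per length spanned a wide range around a median of 43.6 TPM over the 6 libraries. MRPL33, a small conserved protein of the large subunit, had the highest level, with 510.1, 523.9 and 558.0 TPM in knockdown and 462.1, 467.9 and 414.4 TPM in control. MRPL18, of the central protuberance, the crest of the large subunit that faces the small one, and MRPL3, a core protein beside the catalytic centre, followed with means of 210.6 and 188.1 TPM over all libraries. Among MRPS genes MRPS24, MRPS21 and MRPS6 had the highest means, 129.2, 122.2 and 119.3 TPM. The SDs of these MRPS genes within groups were 1.89 to 14.1 TPM, so their order is not resolved. The lowest levels were those of MRPL19, MRPL42 and MRPL22 in the large subunit (5.77, 13.6 and 14.7 TPM) and of MRPS25, MRPS33 and MRPS11 in the small (9.57, 11.6 and 13.7 TPM). The median gene level was 50.1 TPM for MRPL and 34.0 TPM for MRPS.

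In knockdown organoids 42 of the 78 genes rose and 4 fell, while 32 did not pass the test, where 51.7% of all genes tested were called. The share that rose, 53.8%, compares with 26.4% of all genes tested, and the share that fell, 5.13%, with 25.3%. The median log2 fold change (knockdown over control) was 0.18 for the 78 genes and -0.01 for all genes tested. The changes were small: no gene changed by 1.5-fold or more, 23 were called higher by at least 1.2-fold, and 51 differed by less than 1.2-fold either way. Of the 32 genes without a call, 26 had a positive and 6 a negative log2 fold change. Values of the groups did not overlap for 52 of the 78 genes, 47 higher and 5 lower in knockdown, against 57.3% of all genes tested (29.1% higher and 28.2% lower). Adjusted p-values (edgeR quasi-likelihood test, Benjamini-Hochberg over all genes) ran between 2.15e-10 and 0.048 for the rises and between 2.72e-07 and 0.00328 for the falls. When each library was left out in turn, 27 of the 42 rises and all 4 falls kept their call in all 6 fits. On the authors' TPM scale, described at the end, 17 genes were called higher and 14 lower, and 6 of the 42 rises turned sign.

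**Figure D1:**
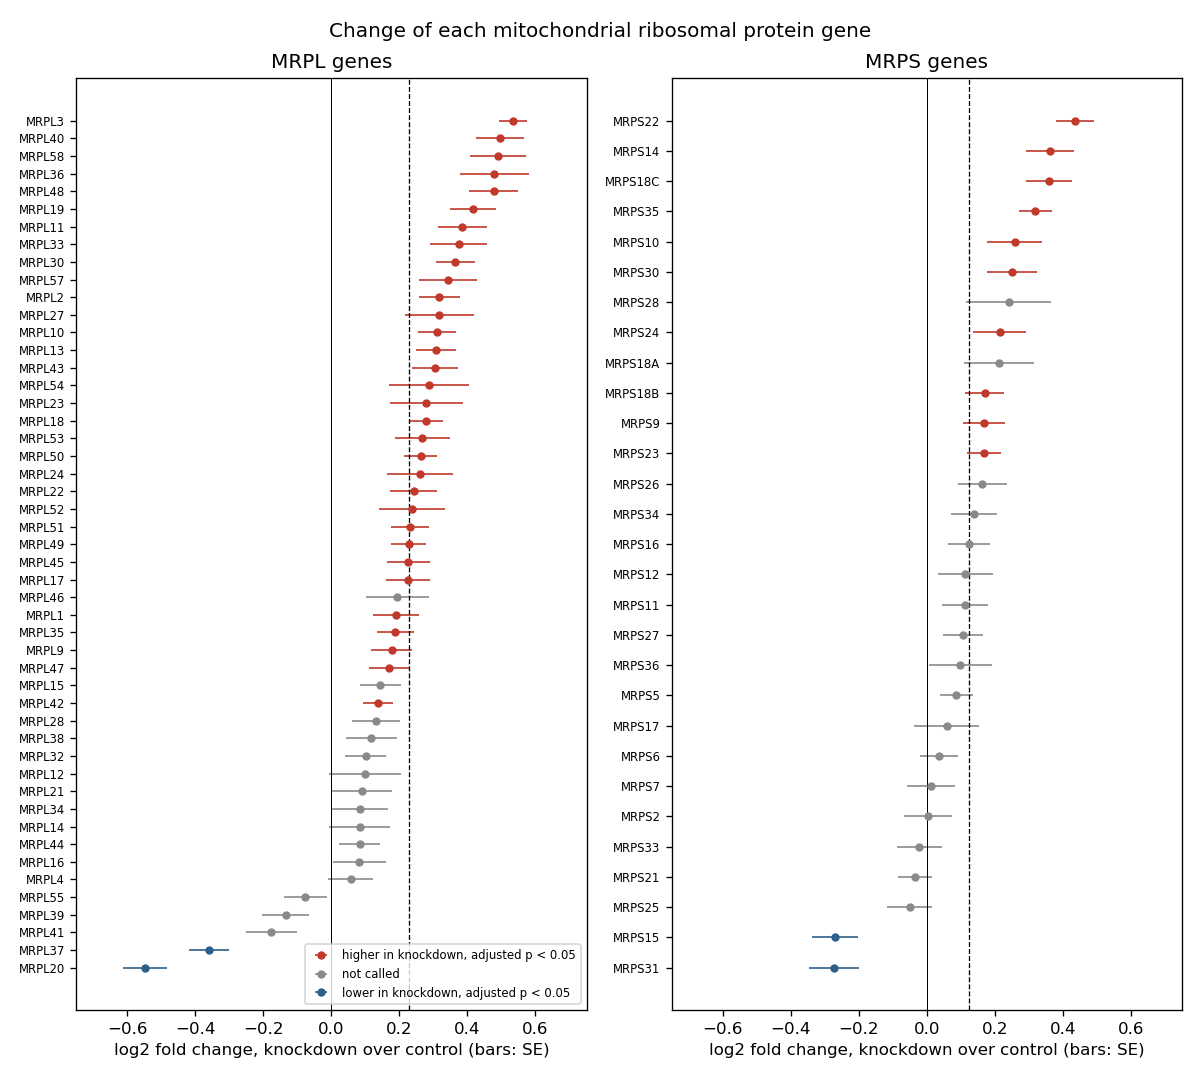
Log2 fold change, knockdown over control, of each of the 49 MRPL (left) and 29 MRPS genes (right), with bars for the SE. Red marks genes called higher, blue genes called lower and grey genes without a call, and the dashed line marks each panel's median, 0.23 for MRPL and 0.12 for MRPS.

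The largest rises among genes whose groups did not overlap were in MRPL3, MRPL40, MRPL58, MRPL36 and MRPL48 of the large subunit and MRPS22 of the small. MRPL3, in which variants cause combined oxidative phosphorylation deficiency, had 222.4, 223.5 and 226.0 TMM-scaled CPM (counts scaled for library depth) in the knockdown libraries, against 151.9, 151.2 and 160.9 CPM in the control libraries. The log2 fold change was 0.53 (SE 0.04, edgeR adjusted p 2.15e-10), and it was the largest rise of all 78. MRPL40, a protein of the central protuberance whose gene lies in the region lost in 22q11.2 deletion syndrome, had 28.3, 29.0 and 28.5 CPM in knockdown, against 20.8, 20.3 and 19.6 CPM in control (log2 fold change 0.50, SE 0.07, adjusted p 3.06e-06). MRPL58, a peptidyl-tRNA hydrolase built into the central protuberance, had 20.5, 22.2 and 20.3 CPM in knockdown, against 14.9, 15.9 and 14.2 CPM in control (0.49, SE 0.08, adjusted p 2.81e-05). In each of these genes the lowest knockdown library lay above the highest control library by more than the range within either group.

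MRPL48, also of the central protuberance, had 28.9, 26.3 and 29.0 CPM in knockdown, against 20.4, 19.6 and 20.5 CPM in control (log2 fold change 0.48, SE 0.07, edgeR adjusted p 8.91e-06). MRPL36, a small protein shared with bacteria, had 13.4, 14.1 and 14.8 CPM in knockdown, against 11.4, 9.20 and 9.65 CPM in control (0.48, SE 0.10, adjusted p 0.000378). Its groups were separated by less than the spread of the control libraries, and its gene overlaps NDUFS6. MRPL3 likewise overlaps LOC105374114, and MRPL48 overlaps MIX23P5 and RN7SKP243. MRPS22, a protein found in mitochondrial but not bacterial ribosomes and another combined oxidative phosphorylation deficiency gene, had 68.5, 67.4 and 71.8 CPM in knockdown, against 54.7, 48.8 and 50.0 CPM in control (0.43, SE 0.06, adjusted p 8.67e-07). It was the largest rise in the small subunit.

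The genes that fell were MRPL20, MRPL37, MRPS31 and MRPS15. MRPL20, a conserved protein that binds the rRNA of the large subunit, had 30.6, 29.0 and 30.7 CPM in knockdown, against 45.8, 45.5 and 40.8 CPM in control (log2 fold change -0.55, SE 0.07, edgeR adjusted p 2.72e-07). Its gene overlaps MRPL20-AS1 and RN7SL657P. MRPL37, a protein without a bacterial counterpart, had 37.0, 37.4 and 36.6 CPM in knockdown, against 49.2, 46.9 and 46.2 CPM in control (-0.36, SE 0.06, adjusted p 2.06e-05), and its gene overlaps SSBP3. MRPS15, which binds the rRNA of the small subunit, had 29.8, 29.7 and 27.4 CPM in knockdown, against 35.5, 36.5 and 32.9 CPM in control (-0.27, SE 0.07, adjusted p 0.0019). MRPS31, of the small subunit's head, had 22.9, 25.9 and 23.2 CPM in knockdown, against 30.2, 27.5 and 29.2 CPM in control (-0.27, SE 0.07, adjusted p 0.00328). No knockdown library reached the lowest control library in any of these genes, but in MRPS31, which has 3 named pseudogenes that could share its reads, the second knockdown and second control libraries came within 2 CPM of each other.

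**Figure D2:**
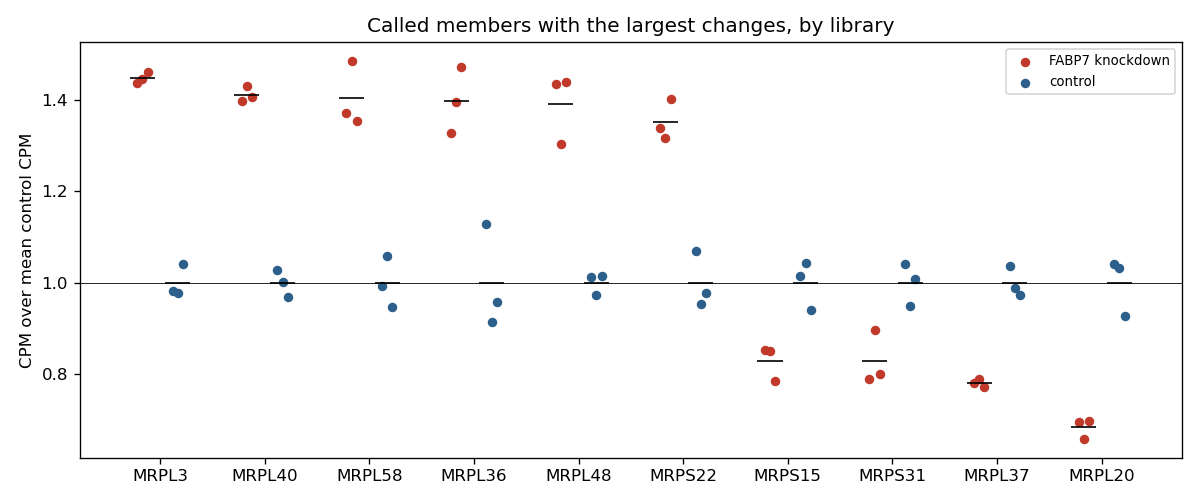
Level of the 6 largest rises and the 4 falls in each library, as CPM divided by the mean CPM of the 3 control libraries. Red points are knockdown libraries and blue points control libraries, lines mark group means, and no gene has groups that overlap.

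Promoters of 70 of the 78 genes were available from RefSeq (GRCh38.p14), each as 300 bases around the gene's start. CCGGAAG, the core sequence bound by ETS factors such as GABP, stood on either strand in 41.4% of them, against 18.7% of the promoters of tested genes and 10.7% of all promoters in the table. AAGATGGCG, a YY1 motif, stood in 18.6%, against 3.82% of tested genes. An NRF1 motif stood in 11.4% against 11.5%, and the E-box CACGTG in 10.0% against 10.1%. The ETS core was in 40.5% of 42 MRPL and 42.9% of 28 MRPS promoters, and in 45.9% of promoters of genes that rose (17 of 37), 34.5% of those without a call (10 of 29) and 2 of the 4 of genes that fell. The other motifs were also more frequent in genes that rose than in those without a call. The shares were 16.2% and 6.9% for NRF1, 24.3% and 13.8% for YY1, and 13.5% and 3.45% for the E-box. Of the 4 promoters of genes that fell, 1 held the E-box and none the NRF1 or YY1 motif. The differences between genes that rose and the others were not tested. None of the motifs contains another, and a match is a description of letters and not evidence of binding. Stretches from 150 bases before to 30 after the start are shown for 3 genes that rose and 1 that fell, MRPL3 (chr3:131502942-131503121, minus strand), MRPL40 (chr22:19432395-19432574, plus strand), MRPS22 (chr3:139343844-139344023, plus strand) and MRPL20 (chr1:1407264-1407443, minus strand), each 5′ to 3′ on the gene's strand, with the ETS core on either strand in capitals. All 4 hold the core, 1 time in MRPL3 and MRPL40, 3 times in MRPS22 and 2 times in MRPL20. They are examples chosen after values were seen, and nothing is drawn from how many of them hold the core.
MRPL3: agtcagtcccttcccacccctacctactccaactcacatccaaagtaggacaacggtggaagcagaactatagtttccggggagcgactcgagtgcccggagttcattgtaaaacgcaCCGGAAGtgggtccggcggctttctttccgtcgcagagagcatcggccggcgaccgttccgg
MRPL40: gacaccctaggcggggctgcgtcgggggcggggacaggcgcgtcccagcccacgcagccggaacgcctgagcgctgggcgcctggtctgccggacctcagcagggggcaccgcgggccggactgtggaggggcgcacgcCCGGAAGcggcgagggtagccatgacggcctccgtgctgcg
MRPS22: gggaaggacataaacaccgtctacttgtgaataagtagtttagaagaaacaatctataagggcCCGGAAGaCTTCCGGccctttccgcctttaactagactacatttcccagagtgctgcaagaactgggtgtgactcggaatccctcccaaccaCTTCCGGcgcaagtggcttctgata
MRPL20: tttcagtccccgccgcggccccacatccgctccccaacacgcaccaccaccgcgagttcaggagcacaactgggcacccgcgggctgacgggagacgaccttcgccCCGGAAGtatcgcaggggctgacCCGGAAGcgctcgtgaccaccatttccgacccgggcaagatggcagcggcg

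The subunits differed in how many of their genes rose. In the large subunit 32 of 49 MRPL genes rose (65.3%) and 2 fell, with a median log2 fold change of 0.23. In the small subunit 10 of 29 MRPS genes rose (34.5%) and 2 fell, with a median of 0.12. Of all genes tested 26.4% rose and 25.3% fell, so the MRPS share of rises was nearer to that of all genes. The medians differed by 0.10. This difference was not tested, because the genes of a subunit are not replicates of a condition. Set against the mean of the control libraries, the median MRPL deviation exceeded the median MRPS deviation by 0.10, 0.09 and 0.07 log2 CPM in knockdown replicates 1, 2 and 3, while the same difference was 0.0005, 0.0014 and -0.03 in the control libraries. The smallest knockdown value was above the largest control value, but the control libraries set the reference and so lie near 0 by construction. This separation is therefore no separate support for the subunit difference. Leaving out each library in turn gave a difference of medians between 0.08 and 0.11, but it was 0.069 on the TPM scale and 0.041 with trends against transcript length and GC content removed. The subunits differ in both, by the longest annotated transcript of each gene. Medians were 1387 bases and 51.5% GC in MRPL and 1640 bases and 47.3% GC in MRPS.

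Levels summed over each subunit also changed more upward for MRPL than for MRPS. The mean MRPS sum was lower in knockdown, 1418 against 1460 TPM, whereas the median MRPS log2 fold change in counts was positive. MRPL genes summed to 3535, 3505 and 3576 TPM in the knockdown libraries, against 3411, 3461 and 3388 TPM in the control libraries, without overlap. MRPS genes summed to 1436, 1405 and 1413 TPM in knockdown, against 1490, 1464 and 1427 TPM in control, and these groups overlapped. The ratio of the sums was 2.46, 2.49 and 2.53 in knockdown, against 2.29, 2.36 and 2.37 in control, with means of 2.50 ± 0.034 and 2.34 ± 0.046 (SD, n = 3 each). The groups did not overlap, and the gap between them exceeded the SD of either. MRPL33 alone held a large part of the MRPL sum, and without it the MRPL sums of the groups overlapped. In that alternative, chosen after its level was seen, the ratios were 2.11 to 2.14 in knockdown and 1.98 to 2.08 in control. In counts, where long transcripts weigh more, the ratio was 1.81 to 1.85 in knockdown and 1.71 to 1.74 in control. Together the 78 genes held 0.340 to 0.343% of all counts in knockdown and 0.309 to 0.321% in control. In TPM they summed to 4971, 4910 and 4989 in the knockdown libraries, against 4900, 4925 and 4815 in the control libraries. These groups overlapped, so the separation in counts was not seen on the TPM scale.

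**Figure D3:**
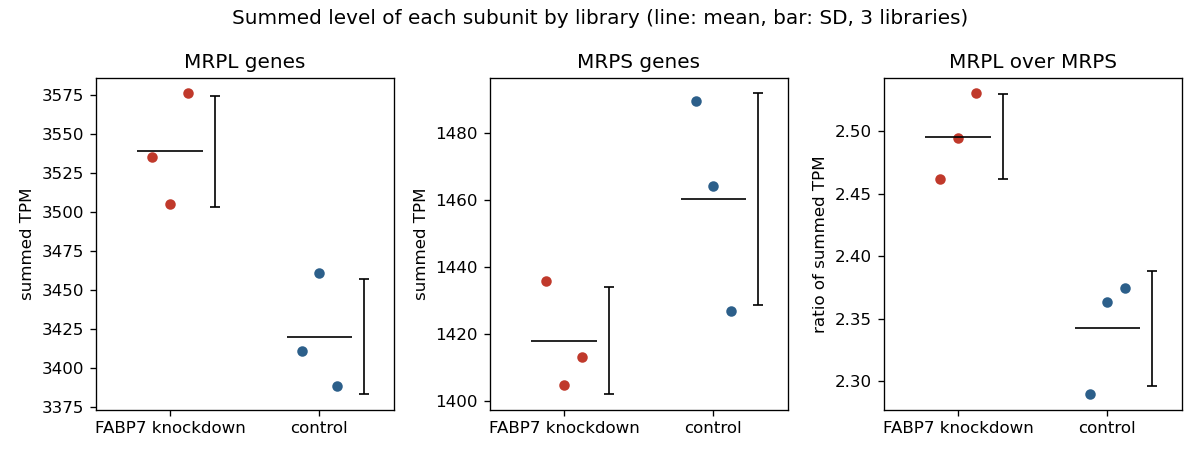
Summed TPM of the 49 MRPL genes, summed TPM of the 29 MRPS genes and their ratio in each library, with the mean as a line and the SD as a bar beside it; the axes do not start at 0. Knockdown libraries (red) lie above control libraries (blue) in the MRPL sum and in the ratio, while the MRPS sums overlap. Without MRPL33, which is included here, the MRPL sums overlap as well.

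Symbols and structure do not match for every gene. MRPS30 and MRPS18A were named for the small subunit but sit in the large one in structures of the ribosome, and MRPS36 is now known as a component of the α-ketoglutarate dehydrogenase complex. MRPS30 rose (log2 fold change 0.25, SE 0.07, edgeR adjusted p 0.00697). MRPS18A had 12.4, 12.2 and 11.1 CPM in knockdown, against 10.98, 10.6 and 9.18 CPM in control, and was not called (0.21, SE 0.10, adjusted p 0.0915). MRPS36 was at 25.3 ± 0.325 CPM in knockdown and 23.6 ± 4.06 CPM in control (SD, n = 3 each) and was not called (0.10, SE 0.09, adjusted p 0.402). Control replicate 1 stood above the other MRPS36 values at 28.2 CPM, and without it MRPS36 was called higher (0.25, adjusted p 0.0144). Proteins named otherwise also belong to the ribosome. DAP3, a GTP-binding protein of the small subunit, was at 120.6 ± 5.32 CPM in knockdown and 104.7 ± 3.43 CPM in control (0.20, adjusted p 0.000946). PTCD3, CHCHD1 and AURKAIP1 of the small subunit also rose (0.13, 0.22 and 0.19), while GADD45GIP1 of the large subunit had 0.14 (adjusted p 0.231). The call of CHCHD1 was lost without control replicate 2 or knockdown replicate 1 or 2 (0.17, 0.17 and 0.20), that of AURKAIP1 without control replicate 3 or knockdown replicate 3 (0.12 and 0.16), and that of PTCD3 without control replicate 1 or any 1 knockdown replicate (0.10 to 0.14). With genes assigned by structure, 33 of 52 large-subunit genes (63.5%) and 13 of 30 small-subunit genes (43.3%) rose, beside 26.4% of all genes tested. The medians were 0.23 and 0.14, and the ratio of summed TPM was 2.13 to 2.18 in knockdown and 2.004 to 2.057 in control.

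In the large subunit the genes classed as shared with bacteria and those classed as mitochondria-specific had similar shares of rises. This likeness was not tested. Of large-subunit proteins classed as shared with bacteria 19 of 30 rose (63.3%, median log2 fold change 0.21). Of those classed as mitochondria-specific 14 of 21 rose (66.7%, 0.23). In the small subunit the counts were 5 of 16 (31.2%, 0.11) and 4 of 10 (40.0%, 0.15). Of all genes tested 26.4% rose. The classes follow the unified naming of ribosomal proteins and not a search for relatives. MRPS18A, MRPS18B and MRPL58 were thus classed as mitochondria-specific, and MRPS18C as shared. These classes hold only genes with MRPL or MRPS symbols. DAP3, PTCD3, CHCHD1 and AURKAIP1 of the small subunit, which all rose, were thus left out, as was GADD45GIP1 of the large. In the central protuberance 5 of 8 genes rose, MRPL18, MRPL27, MRPL40, MRPL48 and MRPL58, and the others, MRPL38, MRPL46 and MRPL55, had log2 fold changes of 0.12, 0.19 and -0.08. The MRPL27 call was lost without knockdown replicate 1 (0.29), and MRPL46 was called higher without control replicate 3 (0.32). In the stalk that recruits translation factors, MRPL10, MRPL11, MRPL53 and MRPL54 rose by 0.31, 0.38, 0.27 and 0.29. The MRPL53 call was lost without knockdown replicate 1 (0.23), and the MRPL54 call without control replicate 2 or 3 or knockdown replicate 1 or 2 (0.16 to 0.33). MRPL12, the stalk protein that contacts the factors, had 16.2, 12.2 and 12.7 CPM in knockdown, against 13.2, 12.9 and 12.1 CPM in control, with groups that overlapped (0.10, edgeR adjusted p 0.454). Around the exit of the peptide tunnel, at the inner membrane, 5 of 7 genes rose, MRPL22, MRPL23, MRPL24, MRPL45 and MRPL47, by 0.17 to 0.28, and MRPL39 and MRPL44 were not called (-0.13 and 0.08). The calls of MRPL23, MRPL24 and MRPL47 were lost without 1 library, at 0.21 to 0.27 without control replicate 1 or 3 or knockdown replicate 1 or 3 for MRPL23, at 0.20 to 0.25 without control replicate 3 or knockdown replicate 1 or 2 for MRPL24, and at 0.12 and 0.15 without control or knockdown replicate 2 for MRPL47. MRPL39 was called lower without knockdown replicate 2 (-0.21).

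Among 10 genes listed for combined oxidative phosphorylation deficiency, MRPL3, MRPS14 and MRPS22 rose and none fell (median log2 fold change 0.13). This was a share of 30.0% beside 26.4% of all genes tested. The list may not hold every gene of these disorders, and the share applies to the listed genes alone. MRPS14, of the small subunit's head, was at 31.3 ± 1.68 CPM in knockdown and 24.4 ± 1.01 CPM in control (SD, n = 3 each; 0.36, edgeR adjusted p 0.000161). MRPS2 and MRPS7 were close to level, at 32.3 ± 1.38 and 30.5 ± 2.42 CPM in knockdown and 32.3 ± 2.88 and 30.2 ± 1.21 CPM in control (0.004 and 0.01, SE 0.07 each). MRPL12, MRPL44, MRPS16, MRPS28 and MRPS34 had 0.08 to 0.24 and were not called, with standard errors up to 0.12, though MRPS34 was called higher without control replicate 1 (0.22).

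Of the most and least abundant genes, MRPL33 rose (log2 fold change 0.37, SE 0.08, edgeR adjusted p 0.00154), with 56.0, 56.2 and 57.7 CPM in knockdown against 50.1, 44.1 and 36.7 CPM in control, where the control libraries were spread far more widely. MRPL18 rose by 0.28 (adjusted p 4.99e-05) and MRPL19 by 0.42 (2.04e-05), at opposite ends of the range of levels. MRPL22 rose by 0.24 (0.00543) and MRPL42 by 0.14 (0.0134), and the MRPL42 call was lost without control replicate 2 or knockdown replicate 3 (0.09 and 0.12). MRPS24 rose by 0.21 (0.0247), a call lost without control replicate 3 or knockdown replicate 1 or 2 (0.13, 0.18 and 0.20). MRPS21, MRPS6, MRPS25, MRPS33 and MRPS11 had -0.04, 0.04, -0.05, -0.02 and 0.11 and were not called. Across the 78 genes the log2 fold change had a Spearman correlation of 0.01 with mean TPM, 0.05 with transcript length and -0.20 with GC content, given as a description since the genes share libraries.

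The position of a gene went with some of the changes. In 5 of the 78 genes the other tested genes within 5 Mb had a median log2 fold change beyond 0.2 either way, and 3 of the 4 falls were among them. MRPL20 (chromosome 1, 1401909 to 1407293, GRCh38.p14) had 70 such neighbours, of which 54 were called lower and 3 higher, with a median of -0.49 beside its own -0.55. MRPL37 (chromosome 1, 54200167 to 54225489) had 44, of which 33 were lower, with a median of -0.38 beside its own -0.36. MRPS15 (chromosome 1, 36455718 to 36464384) had 109, of which 86 were lower, with a median of -0.46 beside its own -0.27. The log2 fold changes of MRPL20, MRPL37 and MRPS15 differed from their regional medians by -0.05, 0.02 and 0.18.

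Of the genes that rose, MRPL36 and MRPL13 also lay in such regions. MRPL36 (chromosome 5, 1798385 to 1801434) had 31 neighbours, of which 24 were called higher and 0 lower, with a median of 0.66 beside its own 0.48, a difference of -0.18. MRPL13, a conserved large-subunit protein on chromosome 8, had neighbours with a median of 0.24 within 5 Mb but -0.13 within 2 Mb, beside its own 0.31 (SE 0.06, edgeR adjusted p 0.000127). MRPS31 (chromosome 13, 40729128 to 40771190) fell in a region with a median of 0.08, and it is the 1 fall left when the 5 genes are set aside, beside 40 rises and a median of 0.19. AURKAIP1, 26702 bases from MRPL20, had 0.19 in a region with a median of -0.50. The regions of MRPL3, MRPL40, MRPL58, MRPL48 and MRPS22 had medians between -0.06 and 0.02. Whether the FKD and FCT lines differ in copy number at these segments was not tested.

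**Figure D4:**
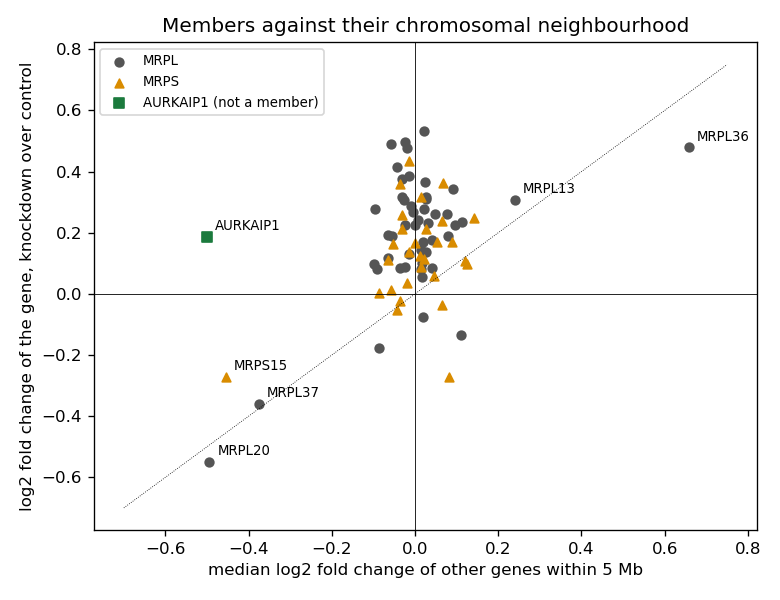
Log2 fold change of each of the 78 genes (vertical) against the median log2 fold change of other tested genes within 5 Mb (horizontal), knockdown over control, with a dotted line where both are equal. Most genes stand above 0 in regions near 0, while MRPL20, MRPL37 and MRPL13 lie within 0.07 of the line, MRPS15 0.18 above it and MRPL36 0.18 below it, and AURKAIP1 (square) stands above 0 in a region below it.

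The rest of the mitochondrial translation system was mixed. Of 17 translation factors 8 rose and 2 fell (47.1% and 11.8%, median log2 fold change 0.09), beside 26.4% and 25.3% of all genes tested. TSFM, the exchange factor of the elongation factor TUFM, was at 37.1 ± 0.417 CPM in knockdown and 25.9 ± 1.39 CPM in control (SD, n = 3 each; 0.52, edgeR adjusted p 6.61e-07). TUFM rose by 0.30, the elongation factor GFM1 by 0.33 and the recycling factor GFM2 by 0.36, while the recycling factor MRRF fell by 0.28. Of 20 genes that charge mitochondrial tRNAs 9 rose and 2 fell (45.0% and 10.0%, median 0.16). WARS2 rose by 0.54, GATC by 0.22 and IARS2 by 0.20, and MARS2 was at 9.53 ± 0.611 CPM in knockdown and 13.2 ± 1.34 CPM in control (-0.47, adjusted p 0.000676).

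Ribosome assembly factors differed from the ribosomal proteins in their counts: 4 of 26 rose and 8 fell, with a median of 0.01. These are shares of 15.4% and 30.8%, beside 26.4% and 25.3% of all genes tested, so the share of falls was near that of all genes. The weakest fall had an edgeR adjusted p of 0.0456. MTG1, a GTPase of large-subunit assembly, had the largest change, 2.29 ± 0.232 CPM in knockdown and 4.88 ± 0.203 CPM in control (SD, n = 3 each; log2 fold change -1.09, edgeR adjusted p 9.48e-06). MRM1, which methylates the large rRNA, was at 1.42 ± 0.173 CPM in knockdown and 2.62 ± 0.191 CPM in control (-0.89, adjusted p 0.00147). RPUSD4, a pseudouridine synthase, rose by 0.25 and MTERF3 fell by 0.26, and both calls were lost without knockdown replicate 2 (0.21 and -0.22).

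Of 10 genes of mitochondrial DNA transcription and replication 5 rose and 1 fell (median log2 fold change 0.17). These are shares of 50.0% and 10.0%, beside 26.4% and 25.3% of all genes tested. MTERF1, which binds the mitochondrial genome at a transcription terminator, rose by 0.49, SSBP1, the single-strand DNA binding protein, by 0.24, and the nuclease MGME1 by 0.28, a call lost without knockdown replicate 2 (0.19). TWNK, the replicative helicase, fell by 0.33. Of the mitochondrially encoded mRNAs only 9 were among the deposited genes, and of these MT-ND1 alone was called. It was at 888 ± 12.7 CPM in knockdown and 800 ± 72.1 CPM in control (SD, n = 3 each, 0.15, edgeR adjusted p 0.0153). That call was lost without control replicate 2 or 3 or knockdown replicate 1 or 2 (0.09 to 0.15). MT-ATP6 was called higher without control replicate 1 (0.22). The 9 ran between -0.30 and 0.15, with a median of -0.04.

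Of 11 regulators of mitochondrial biogenesis 3 rose and 2 fell, shares of 27.3% and 18.2% near the 26.4% and 25.3% of all genes tested. SP1 was at 130.6 ± 3.46 CPM in knockdown and 91.9 ± 2.14 CPM in control (SD, n = 3 each; log2 fold change 0.51, edgeR adjusted p 2.69e-09). MYCN and YY1 rose by 0.21 and 0.10, and PPRC1 and ESRRA fell by 0.23 and 0.27. The MYCN call was lost without control replicate 1 or knockdown replicate 3 (0.19 and 0.16), the YY1 call without control replicate 1 or 2 or knockdown replicate 2 or 3 (0.07 to 0.10), the PPRC1 call without control or knockdown replicate 2 (-0.18 and -0.19), and the ESRRA call without control replicate 1 or knockdown replicate 2 or 3 (-0.20, -0.19 and -0.28). NRF1 and GABPA, whose motifs were sought above, had -0.05 and 0.05 and were not called.

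The direction was shared with other large sets of small housekeeping proteins. Of 84 cytosolic ribosomal protein genes tested 56 rose and 5 fell (66.7% and 5.95%, median log2 fold change 0.27), and of 79 nuclear genes of the respiratory chain 44 rose and 3 fell (55.7% and 3.8%, median 0.21). Shares of rises as high or higher were thus also found outside the mitochondrial ribosome.

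The size of the rise depended on the scale. By the longest annotated protein-coding transcript of each gene, the median length was 1516 bases for the 78 genes, against 3544 bases for tested genes. GC content was 48.9% against 48.5%. On the authors' TPM scale the median of all genes was -0.16 (log2(TPM + 1), limma-trend), against -0.01 in TMM-scaled counts, with 11.9% of genes called higher and 45.9% lower. On that scale 17 of the 42 rises kept their call, 6 turned sign and 10 further genes were called lower, and the medians were 0.05 for MRPL and -0.02 for MRPS, which turned negative. Relative to the median of all genes both stayed higher. With trends against transcript length and GC content taken out of each library, 29 of the 42 rises kept their call and the medians were 0.14 for MRPL and 0.10 for MRPS, where 30.0% of all genes were called higher. In all 19 refits 12 rises (MRPL2, MRPL3, MRPL11, MRPL19, MRPL33, MRPL36, MRPL40, MRPL48, MRPL58, MRPS14, MRPS18C and MRPS22) and all 4 falls kept their call. The MRPL median stayed above the MRPS median, and both above the median of all genes, under each scaling plotted.

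**Figure D5:**
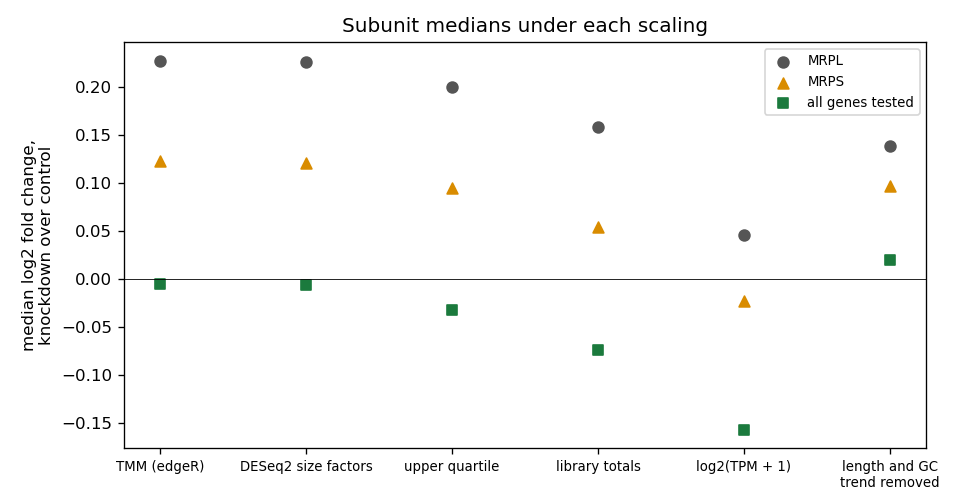
Median log2 fold change, knockdown over control, of the MRPL genes (circles), the MRPS genes (triangles) and all genes tested (squares) under 6 ways of scaling the libraries. The order of the 3 medians is the same in each column, while their height shifts with the scale.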

How the data were processed

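Per the file headers, the authors deposited expected counts, TPM, FPKM and a normalized read count (a signal scaled by 1 factor per library) for each gene and library. FPKM and the normalized read count entered no test. Per the submitters' processing notes the genome build was hg38. Not given in the sources used here were the aligner, counting tool, annotation, strand use, knockdown method and preparation of the bulk libraries. The 2 single-cell libraries were not analysed here.

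Expected counts, 12.6 to 14.9% of them not whole, were rounded and tested with edgeR 4.0.16 in R 4.3.3 (TMM, filterByExpr with minimum count 10 and total 15, robust quasi-likelihood F-test, Benjamini-Hochberg adjustment over 13468 genes, threshold 0.05). TMM factors were 0.974 to 0.979 in knockdown and 1.02 to 1.03 in control. Each SE was derived from the test, as the absolute log2 fold change over the square root of F. TPM was tested as log2(TPM + 1) with limma 3.58.1, where 3 libraries reached 1 TPM. Fold changes on that scale understate changes of low genes. Transcript lengths and GC content were those of the longest protein-coding GENCODE transcript of each gene (98.5% of tested genes). That transcript need not be the one expressed here. Positions and promoters came from RefSeq.

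The genes, lists and tests were chosen with earlier results of these data known. Names followed a rule: FABP7, the 6 largest rises and falls among called genes whose groups did not overlap, the 3 highest and lowest TPM per subunit, calls against the majority, genes in shifted regions, MRPS30, MRPS18A and MRPS36, and up to 4 genes per related list by smallest p (all called, where 5 or fewer). MRRF, GADD45GIP1, NRF1, GABPA and the genes of the central protuberance, stalk, tunnel exit and disease lists were named after their values were seen. Of the 78 genes 32 overlap another RefSeq gene and 42 have a named pseudogene, and reads could be split between such copies. These limits also hold for genes named above without them. MRPS18C, for example, overlaps ABRAXAS1 and has 6 named pseudogenes.

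Alternatives were other normalizations, DESeq2 1.42.0, limma-voom, other filters, the replicate number as a block, TPM with pseudocounts of 1 and 0.1, removal of length and GC trends (natural splines with 5 degrees of freedom), and leaving out each library.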

Additional observations from a re-analysis of the deposited data

How the results depend on the processing

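The 4 falls kept their direction and call under all 19 refits, and no rise turned sign outside the TPM scale and the removal of length and GC trends. On log2(TPM + 1), log2(TPM + 0.1) and log2(TPM + 1) without a filter, rises among the 78 genes numbered 17, 17 and 13 (13, 13 and 10 MRPL; 4, 4 and 3 MRPS) and falls 14, 14 and 12. Over all genes 1475, 1469 and 1456 were higher and 5694, 5680 and 5807 lower, and the related lists had 7, 6 and 4 rises and 35, 35 and 29 falls. Medians on log2(TPM + 1), with or without the filter, were 0.0093 for the 78 genes, 0.046 for MRPL and -0.023 for MRPS (difference 0.069), and on log2(TPM + 0.1) they were 0.0095, 0.046 and -0.023 (difference 0.070). All genes had -0.16 and -0.17 with the filter, and the excess of the 78 genes over all genes was 0.10 without it. Named genes that turned sign on all these scales, given at pseudocounts of 1 and 0.1, were MRPL42 (-0.046 and -0.049), MRPS6 (-0.13 and -0.13), MRPS36 (-0.058 and -0.059), AURKAIP1 (-0.0032 and -0.0032), PTCD3 (-0.051 and -0.053), YY1 (-0.084 and -0.085), MT-ND1 (-0.015 and -0.015), MT-ATP6 (-0.017 and -0.017) and MT-ND2 (-0.11 and -0.11). With length and GC trends removed, falls numbered 7, medians were 0.12 for the 78 genes and 0.14 for MRPL, the subunits differed by 0.041, the excess was 0.10 (0.099), and MRPS25 (0.0050), MRPS6 (-0.094), MRPS36 (-0.20), MT-ATP6 (-0.045) and MT-ND2 (-0.12) turned sign. Under library totals alone 6 MRPS genes and 19 related genes rose, medians were 0.11 for the 78 genes, 0.16 for MRPL and 0.054 for MRPS, and MRPS6 (-0.033) and MT-ND2 (-0.0068) turned sign. The cause was not tested. DESeq2 gave 8 falls in the related lists, against 15. Of the 42 rises 33 kept their call under DESeq2, 29 under library totals alone and 35 under upper-quartile factors. Under limma-voom 41 kept it, and with DESeq2 size factors in edgeR all 42 did.

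Leaving out each library gave 32 to 42 rises and 4 to 5 falls, 25 to 31 MRPL and 7 to 12 MRPS rises, MRPS medians of 0.12 to 0.17, and subunit differences of 0.080 to 0.11. In the related lists it gave 22 to 30 rises (22 without knockdown replicate 2, against 34) and 8 to 14 falls (8 without knockdown replicate 2, 9 without control replicate 1). MRPS33 ran between -0.061 and 0.014 and was positive without knockdown replicate 1 or control replicate 1, and MRPS21 ran between -0.068 and 0.0022 and was positive without control replicate 1. Without genes in shifted regions 1 fall was left, and without MRPL33 the log2 change in the ratio of sums was 0.060, against 0.092. Same-numbered knockdown and control libraries correlated at 0.070, 0.065 and 0.039 in their deviations, under the 0.1 needed to treat the numbers as pairs. The fit with the replicate block gave 43 rises and 4 falls. Knockdown replicates 1 and 2 correlated best with the control of their own number, and knockdown replicate 3 with control replicate 1. Under the filter of 10 CPM MTG1, MRM1 and WARS2 were not tested.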

Other observations

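Many of these genes share a promoter region with a gene on the opposite strand. A start of such a gene lay within 1000 bases of 26 of the 78, and 19 of the partners were tested. The counting did not state its use of strand, so reads of overlapping partners may not be told apart. Among 10 genes that rose and had a tested partner, the partner also rose for 3 and fell for 4. Of all genes tested 26.4% rose and 25.3% fell. MRPL57 (log2 fold change 0.34) shares its start region with SKA3, a kinetochore protein (0.74), MRPL51 (0.23) with NCAPD2 of condensin (0.65), and MRPL27 (0.32) with EME1, a DNA repair nuclease subunit (0.50). Partners that fell were HIRA, a histone chaperone beside MRPL40 (-0.30), ZNF189 beside MRPL50 (-0.15), PPP1R10 beside MRPS18B (-0.38) and HELQ, a DNA helicase beside MRPS18C (-0.33). MRPL46 and MRPS11, 1 gene of each subunit, stand back to back with starts 320 bases apart, and neither was called (0.19 and 0.11). These genes were named after their values were seen, and no relation between neighbours was tested.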
